A study of Mus musculus with 29 samples.

Results

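The Toll-like receptor genes followed here are Tlr1, Tlr2, Tlr3, Tlr4, Tlr5, Tlr6, Tlr7, Tlr8, Tlr9 and Tlr13, 10 of the 21951 protein-coding genes of the mouse annotation. They were chosen by family, and each was described by the CUT&RUN peaks that overlapped its gene body extended by 20 kb on each side. The 25 deposited peak lists placed 722 of 1008854 distinct regions in these windows, at 721 positions. All libraries came from female mice. IRF8 was mapped with an antibody to GFP in IRF8-EGFP mice, in sorted microglia at postnatal day 9 (P9, 4 libraries), day 14 (P14, 3) and in the adult (3), and in peritoneal macrophages (PM, 3). PU.1, acetylated lysine 27 of histone H3 (H3K27ac) and monomethylated lysine 4 (H3K4me1) were mapped in adult microglia of wild-type (WT) and IRF8KO mice, with 2 libraries for each mark and genotype. Adult mice were 3 months old. The labels give that age for the young groups as well and name sorted microglia as the source of the macrophage libraries, and the titles were followed in both cases. The P9 libraries are 4 of 7 and those of IRF8KO H3K27ac are 2 of 3, per the labels. Nothing in the labels ties a library to 1 animal, so differences between replicates may be technical.

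Toll-like receptors recognise microbial molecules and pass the signal through adaptor proteins such as MyD88 and TRIF to NF-kB and interferon regulatory factors. Tlr1, Tlr2, Tlr4, Tlr5 and Tlr6 encode receptors of the cell surface, and Tlr3, Tlr7, Tlr8, Tlr9 and Tlr13 encode receptors of endosomes that detect nucleic acids. IRF8 is a transcription factor of myeloid cells that often binds DNA together with the ETS factor PU.1, which marks the regulatory elements of macrophages and microglia. H3K4me1 is found at enhancers in general, and H3K27ac at active enhancers and promoters.

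Treatment libraries held 7.25 to 24.7 M fragments. The IRF8 lists had 1168 to 2068 distinct regions at P9, 7931 to 19243 at P14, 17048 to 29667 in adults and 9788 to 23163 in macrophages, so every P9 list was shorter than every later one, while the P14 and adult lists overlapped in length. At the promoters of 8 microglia marker genes, H3K27ac was listed at 7 and 8 in WT and at 5 and 3 in IRF8KO. IRF8 was listed at 0 to 1 of these 8 at P9, 3 to 7 at P14, 3 to 8 in adults and 0 to 2 in macrophages, and at 2 to 4 of the 4 peritoneal markers in macrophages. In microglia the IRF8 lists held 0 to 1 of these 4 at P9, 0 to 2 at P14 and 1 to 2 in adults, with Garnl3 in all 3 adult lists and Gata6 in adult replicate 3. The H3K27ac lists held 2 and 1 in WT and 2 and 0 in IRF8KO. Neuron markers were listed at 0 of 4 in every IRF8 list. Markers of other cell types were listed in several libraries. Of 4 oligodendrocyte markers, Mog was listed in replicates 1 and 2 of the P14, adult and macrophage IRF8 lists, Mbp and Mog in both WT H3K27ac lists, and Mbp in IRF8KO H3K27ac replicate 1. The astrocyte gene Gja1 was listed in the same 3 H3K27ac lists, and the neuron gene Syt1 in WT H3K27ac replicate 2. Of 3 T cell markers, Cd3d and Cd3g were listed in adult IRF8 replicate 3 and Cd3d in WT H3K27ac replicate 2. Of 3 B cell markers, Cd79a and Ms4a1 were listed in IRF8KO H3K27ac replicate 1 and Ms4a1 in WT H3K27ac replicate 2. The part of other cell types in the results was not tested. The third macrophage library stood apart at the receptor genes, with 4 regions in their windows against 38 and 20 in the other macrophage libraries.

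The sequences below show the DNA under 5 PU.1 summits outside exons, chosen because PU.1 or IRF8 presence there differed between genotypes, stages or cell types. They are the plus strand of GRCm38, 151 bases centred on the strongest PU.1 summit, with matches to the ETS core GGAA on either strand in capitals. The Tlr4 and Tlr5 elements are intronic, the Tlr8 and Tlr9 elements lie downstream, and the Tlr13 element lies upstream.
Tlr4, chr4:66843491-66843641: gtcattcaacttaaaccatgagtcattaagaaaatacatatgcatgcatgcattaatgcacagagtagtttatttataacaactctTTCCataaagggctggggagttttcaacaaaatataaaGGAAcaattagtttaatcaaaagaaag
Tlr5, chr1:182960030-182960180: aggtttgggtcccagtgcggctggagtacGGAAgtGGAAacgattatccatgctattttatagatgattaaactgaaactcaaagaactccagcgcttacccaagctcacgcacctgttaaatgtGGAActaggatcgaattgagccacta
Tlr8, chrX:167229582-167229732: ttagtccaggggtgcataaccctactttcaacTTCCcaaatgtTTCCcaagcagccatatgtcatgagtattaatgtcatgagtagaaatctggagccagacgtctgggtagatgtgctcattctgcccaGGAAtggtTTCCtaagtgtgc
Tlr9, chr9:106230289-106230439: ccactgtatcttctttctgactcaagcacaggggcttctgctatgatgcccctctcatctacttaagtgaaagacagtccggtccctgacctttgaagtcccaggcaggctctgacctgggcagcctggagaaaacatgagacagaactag
Tlr13, chrX:106136208-106136358: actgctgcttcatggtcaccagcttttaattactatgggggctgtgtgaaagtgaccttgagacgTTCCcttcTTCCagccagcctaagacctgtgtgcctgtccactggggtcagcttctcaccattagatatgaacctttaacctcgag

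The ETS core was present in 4 of these 5 windows, all but the Tlr9 element, and in 84.2% of 5358 WT PU.1 consensus regions read the same way.

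Which receptor genes carried IRF8 at each age was the first comparison. IRF8 was sparse at the receptor genes at P9 and was found at all 10 in adults. Peaks of a group's libraries were merged, and a merged region counted as a consensus region when 2 or more of those libraries had a peak in it. Such a region was present at 2 of 10 receptor genes at P9, where 6.99% of all gene windows had one. At P14 all 10 genes had one, against 32.0% of all windows, and in adults again all 10, against 50.7%. In macrophages 7 of 10 had one, against 40.0%, and Tlr1, Tlr5 and Tlr9 did not. When every list was reduced to its 1168 strongest regions, the length of the shortest list, P9 had 2 such genes, beside 5.84% of all windows, and P14 had 4, beside 5.37%. Adults then had 3, beside 5.41%, and macrophages 3, beside 4.44%. With lists of equal length the 4 groups thus ran only from 2 to 4 genes.

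The number of distinct IRF8 regions in a window was compared over P9, P14 and adult with an exact Jonckheere-Terpstra permutation test, 2-sided, with Benjamini-Hochberg adjustment over the 16485 gene windows that had an IRF8 region. It called 6 of the 10 receptor genes as rising, and 46.0% of all windows tested. The members' median trend score was 24 and that of all genes tested 20, where the score is a sum of signs over pairs of libraries of different stages and 33 is its maximum. With lists of equal length the test called 0 receptor genes and 0 of 3912 genes, with 0 receptor genes and 89 rising and 58 falling genes at an unadjusted p under 0.05. Of the 6 called genes, Tlr5 and Tlr7 had 0 regions in every shortened list and could not be tested, and Tlr2, Tlr3, Tlr9 and Tlr13 were tested and not called. Tlr1 also had 0 regions in every shortened list. With the full lists 0 genes were called as falling, also at an unadjusted p under 0.05. Without any single P9 library the test called 2 receptor genes, beside 9.71% to 10.8% of all windows tested, and without adult replicate 2 it called 3, beside 12.2%. Calls were thus lost over all genes as well as at the receptors. The stages were also called against different control libraries, so stage and control cannot be told apart.

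Among the endosomal receptors, Tlr7, a receptor for single-stranded RNA, had 0 IRF8 regions in each of the 4 P9 libraries, 1, 3 and 3 at P14, and 4, 5 and 6 in adults. No value overlapped between stages, and Tlr7 had the smallest adjusted p of the family (exact permutation test, adjusted p = 0.0150). That value comes from the smallest p the test can give, and Tlr7 shares it with other genes, such as the pathway gene Chuk. Tlr13, a receptor for bacterial ribosomal RNA, had 0, 0, 1 and 0 regions at P9, 2 in each P14 library, and 2, 3 and 4 in adults (exact test, adjusted p = 0.0156). Tlr9, which detects unmethylated CpG DNA, had 0, 1, 1 and 0, then 2, 4 and 2, then 4, 3 and 3 (exact test, adjusted p = 0.0283). For Tlr13 and Tlr9 the P9 libraries lay below all later ones, while P14 and adult counts overlapped. Tlr3, a receptor for double-stranded RNA, had 1, 1, 1 and 0 regions at P9, 1, 3 and 1 at P14, and 2, 2 and 4 in adults, with overlap between neighbouring stages (exact test, adjusted p = 0.0312). Tlr8, which lies next to Tlr7 on the X chromosome, had 0 at P9, 2, 3 and 0 at P14, and 2, 2 and 1 in adults, and was not called (exact test, adjusted p = 0.109).

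Among the cell-surface receptors, Tlr2, a partner of Tlr1 and Tlr6 in the recognition of lipopeptides, had 0 regions in every P9 library, 2, 3 and 1 at P14, and 2, 3 and 3 in adults (exact test, adjusted p = 0.0237). Tlr5, the flagellin receptor, had 0 at P9, 1, 1 and 0 at P14, and 1, 2 and 1 in adults (exact test, adjusted p = 0.0283). Both were called, and both had at least 1 region in every adult library. Tlr6 had 1, 0, 0 and 0, then 2 in each P14 library, then 2, 3 and 1, and missed the threshold (exact test, adjusted p = 0.0503). Tlr1 had 0 at P9, 1, 2 and 0 at P14, and 2, 2 and 0 in adults (exact test, adjusted p = 0.109). The Tlr1 and Tlr6 windows overlap, and the Tlr1 promoter region is counted in both.

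Tlr4, the receptor for lipopolysaccharide, differed from the rest of the family in having at least 1 IRF8 region in all 13 IRF8 libraries. It had 1, 2, 1 and 2 regions at P9, 2, 3 and 1 at P14, 2, 4 and 2 in adults, and 5, 3 and 1 in macrophages. The 3 microglial stages overlapped and no trend was called (exact test, adjusted p = 0.210). With lists of equal length Tlr4 had 1, 2, 1 and 2 regions at P9, 2, 1 and 1 at P14, and 1 in each adult library. Its body is 102.7 kb long, against a median of 16.4 kb for the 10 members and 17.4 kb for all protein-coding genes. The Tlr4 consensus sites of microglia were all within 16 kb of the first base, and a macrophage site lies 24.6 kb into the gene. The part of gene length in the Tlr4 counts was not tested.

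**Figure D1:**
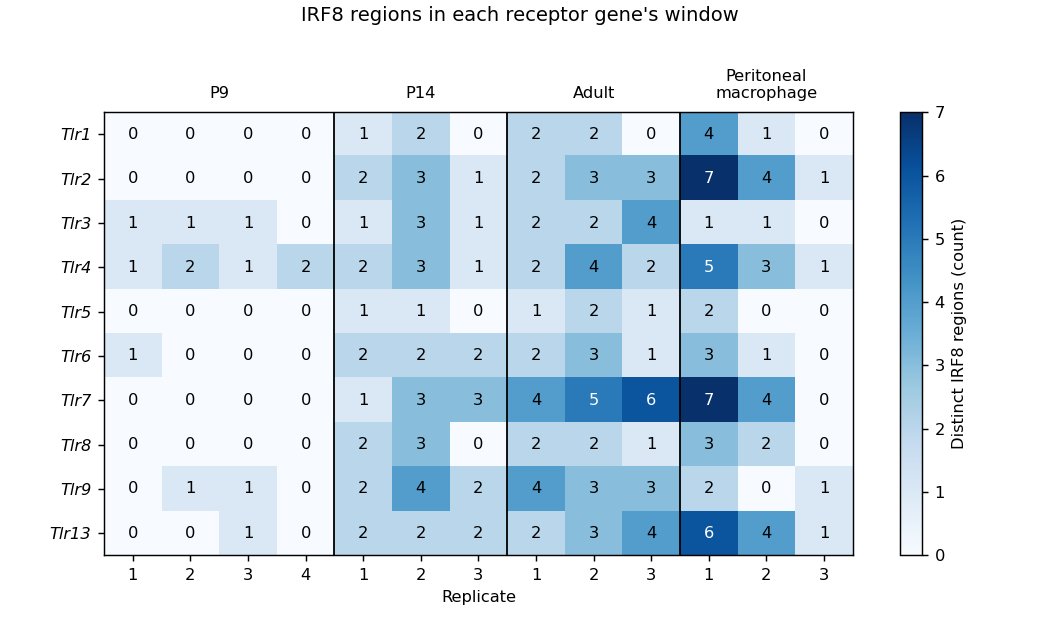
Distinct IRF8 regions (colour and printed count) in the window of each receptor gene (rows) in each of the 13 IRF8 libraries (columns, grouped by stage or cell type). P9 columns hold 0 to 2 regions a gene, Tlr4 is the row with no 0, and the third macrophage library holds at most 1 region a gene.

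Merging the consensus regions of the 4 IRF8 groups gave 25 sites, each counted once. Of these, 8 had their centre within 1 kb of an annotated start of the receptor gene, 5 were intronic, 9 upstream and 3 downstream. Adult microglia had a consensus region at 20 of the 25, of which 15 were also present at P14 and 3 at P9. All 3 sites present at P9 were thus present in adults too. Of the 20 adult regions, 75% overlapped a P14 consensus region, against 43.2% of all 16935 adult regions, and 15% a P9 region, against 7.76%. The adult regions at the receptor genes were also wider, with a median of 1790.5 bp against 1085 bp for all, and the part of width in these overlaps was not tested. H3K27ac consensus in WT overlapped 17 of 20, or 85%, against 81.8% of all, and H3K4me1 19 of 20, or 95%, against 91.3%. PU.1 consensus in WT overlapped 9 of 20, or 45%, against 27.04%. The part of width in the overlaps with PU.1 and the histone marks was not tested either.

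The 3 sites already present at P9 were the Tlr4 promoter, an intron of Tlr4 and an element upstream of Tlr3. At the Tlr4 promoter (adult region chr4:66826990-66829185, over the first exon) the authors' fold enrichment was 5.71, 5.33, 5.24 and 6.38 in the P9 lists, 14.04, 17.3 and 8.78 at P14, 18.7, 20.3 and 21.7 in adults, and 28.0, 25.8 and 12.6 in macrophages. It was the 1 site of the 25 with a peak in every IRF8 library. Fold enrichment comes from lists with different controls and depths, so these values describe each list and were not compared between stages. Within its own list the Tlr4 promoter region ranked above 94.4% to 98.1% of regions at P14, above 96.0% to 99.7% in adults and above 99.5% to 99.8% in macrophages, and above 53.4% to 77.4% at P9. Such a share depends on the length of the list, and the P9 lists were the shortest, so the shares were not compared between stages either.

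The Tlr4 intronic site (adult region chr4:66842727-66844117, 15.8 kb downstream of the first base) had a peak in P9 replicates 2 and 4, with folds of 4.20 and 5.35, in P14 replicates 1 and 2, with 9.16 and 8.31, in all adult libraries, with 8.82, 9.66 and 6.05, and in macrophage replicates 1 and 2, with 13.2 and 8.75. It was listed at every stage, though not in every library. The Tlr3 upstream element (4.3 kb before the first base) had folds of 5.12, 5.61 and 5.22 in the first 3 P9 libraries, 11.5, 15.2 and 6.88 at P14, and 18.7, 14.2 and 17.0 in adults. It was listed in 9 of the 10 microglial IRF8 libraries and in 0 of the 3 macrophage libraries.

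Sites with a consensus region from P14 on included the promoters of Tlr1 (chr5:64931968-64934782), Tlr2 (chr3:83838728-83842881), Tlr5 (chr1:182953440-182954146), Tlr6 (chr5:64959067-64961917) and Tlr9 (chr9:106221405-106223657). The Tlr2 promoter region, which had a peak in all 3 P14 and all 3 adult libraries, had folds of 10.6, 15.6 and 11.5 at P14 and 10.8, 13.4 and 5.05 in adults. At the Tlr6 promoter the folds were 8.75, 11.2 and 6.46 at P14 and 11.4, 18.6 and 10.1 in adults, and 1 P9 library had a peak there, as at the Tlr9 promoter. Tlr7 had the most sites, 6, of which 4 were adult regions: an upstream region 4.3 kb before the gene and intronic regions 2.9, 11.6 and 14.4 kb into it. The region 11.6 kb into Tlr7 (chrX:167318214-167319622) had a peak in all 3 adult libraries and in 0 of 7 younger ones. The adult sites without P14 consensus were this one, the Tlr2 elements 3.5 and 14.1 kb upstream, the Tlr3 promoter and a region 18.7 kb upstream of Tlr9, which lies 0.7 kb from a start of the neighbouring gene Twf2. Of these, the Tlr3 promoter had a peak in 1 P14 library.

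Tlr7, Tlr8 and Tlr13, all on the X chromosome, had no adult consensus region at the promoter, and the other 7 receptor genes had one. The Tlr8 site (chrX:167229169-167232348) lies 33.6 kb from the first base, beyond the end of the gene, and 21443 bp from the nearest start, that of Tmsb4x. The Tlr8 site had folds of 7.50 and 10.1 in P14 replicates 1 and 2 and of 10.4, 17.4 and 6.45 in adults. The 2 Tlr13 adult sites lie 7.2 kb (chrX:106135401-106136644) and 3.3 kb (chrX:106138927-106140846) upstream. The Tlr9 downstream site (chr9:106229638-106231508), 8.0 kb from the first base of Tlr9 and 6.5 kb from a start of Alas1, had folds of 6.92, 16.1 and 6.44 at P14 and 16.1, 15.1 and 6.27 in adults, with 1 P9 peak and 0 macrophage peaks.

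**Figure D2:**
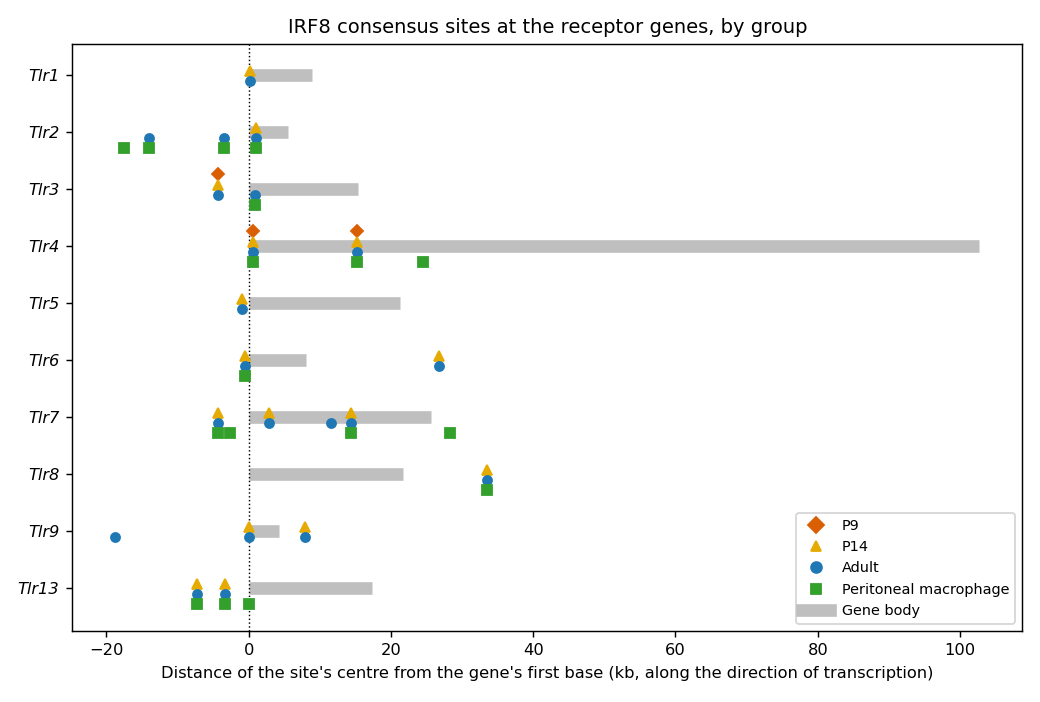
IRF8 consensus sites of each receptor gene, placed by the distance of the site's centre from the gene's first base in kb along the direction of transcription; symbols show the groups with a consensus region and grey bars the gene bodies. P9 symbols appear at 3 sites, in Tlr3 and Tlr4, and Tlr8 has its only site beyond the end of the gene. The Tlr1 promoter appears also in the Tlr6 row because the windows overlap.

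Sequence motifs were read within 100 bp of the centre of each adult IRF8 region, on both strands. The composite ETS-IRF motif GGAANNGAAA, which joins a site of each factor family, was found in 1 of the 20 regions at the receptor genes, against 6.28% of all adult regions. The interferon-response-like motif GAAANNGAAA was found in 3 of 20, at the Tlr1 promoter, the Tlr3 promoter and the nearer Tlr13 upstream element, against 4.20%. The ETS core, which every composite match contains, was found in 19 of 20, against 91.7%. Centred on the strongest summit instead, the counts were 0, 0 and 17 of 20, against 2.87%, 2.93% and 90.2%. These matches describe letters in a window and not occupancy by any factor.

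Adult microglia and macrophages were compared by IRF8 regions per window. For 2 of the 10 receptor genes, Tlr3 and Tlr9, every adult library had more regions than every macrophage library, as had 9.07% of all windows. Tlr3 had 2, 2 and 4 regions in adults and 1, 1 and 0 in macrophages, and Tlr9 had 4, 3 and 3 against 2, 0 and 1. The exact permutation p was 0.1 for each, the smallest that 3 against 3 libraries can give. Within batch 1 (replicates 1 and 2 of both cell types) adults were higher by 1 and 2.5 regions for Tlr3 and Tlr9, and within batch 2 (replicate 3) by 4 and 2. Tlr5 and Tlr6 were also higher in adults in both batches, by 0.5 and 1 regions each, though their libraries overlapped. The direction turned between batches 1 and 2 for Tlr2 (-3 and 2), Tlr4 (-1 and 1), Tlr7 (-1 and 6), Tlr8 (-0.5 and 1) and Tlr13 (-2.5 and 3), given as adult minus macrophage. Tlr1 differed by -0.5 and 0. No receptor gene had fewer regions in every adult library, against 1.44% of all windows, and without macrophage replicate 3 there was 1, Tlr2, against 6.67%.

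By site, 12 of the 20 adult sites had a macrophage consensus region, or 60%, against 39.5% of all adult regions. Adult regions at the receptor genes were wider than others, as given above, and the part of width in this overlap was not tested. The adult sites with a peak in 0 of 3 macrophage libraries were 2, the Tlr3 upstream and Tlr9 downstream elements. Macrophages had consensus regions at 5 further sites, of which 4 had no peak in any adult library: 17.6 kb upstream of Tlr2, 24.6 kb into Tlr4, and 28.3 kb downstream and 2.7 kb upstream of the first base of Tlr7. The fifth was the Tlr13 promoter, with a peak in 1 adult library. Without macrophage replicate 1, or without replicate 2, 3 receptor genes had a macrophage consensus region, beside 16.2% and 17.7% of all windows. Without replicate 3, which stood apart, 7 had one, beside 37.1%.

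The knockout comparison asked which regions of PU.1, H3K27ac and H3K4me1 were absent without IRF8. IRF8 itself was not mapped in the knockout libraries, so these lists hold no check of the deletion. A WT consensus region counted as lost when neither IRF8KO library had a peak over it, and an IRF8KO consensus region as gained when neither WT library had one. With 2 against 2 libraries an exact test cannot give a p below 0.33, so counts are given with no test. Absence from a list means that no peak passed the authors' threshold, not that signal was 0.

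PU.1 was lost at 3 of the 10 WT consensus regions of the receptor genes, near the 25.1% of all WT PU.1 regions. The lost regions were the intronic site of Tlr4 (chr4:66843133-66843685), an intronic region of Tlr5 (chr1:182959937-182960249, 5.3 kb into the gene) and the region beyond the end of Tlr8 (chrX:167229455-167229863). The start nearest to the last of these is that of Tmsb4x. WT folds were 10.4 and 8.62 at Tlr4, 6.05 and 3.49 at Tlr5, and 11.1 and 4.83 at Tlr8. The Tlr4 and Tlr8 regions overlap adult IRF8 consensus regions and the Tlr5 region does not. Over all PU.1 regions in the 4 libraries of the Tlr5 window, WT had 3 and 2 and IRF8KO 0 and 1. For Tlr8 the counts were 3 and 2 against 1 and 1, and for Tlr4 they were 2 and 2 against 1 and 1.

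PU.1 was kept at the promoters of Tlr4 and Tlr6, in Tlr2, upstream of Tlr3 and at the nearer upstream site of Tlr13, each with a peak in all 4 libraries. At the Tlr4 promoter the folds were 14.6 and 7.59 in WT and 17.2 and 10.7 in IRF8KO, so PU.1 was listed at the promoter in both genotypes and at the intron of the same gene in WT alone. The Tlr9 promoter and the Tlr9 downstream element had a PU.1 peak in both WT libraries and in IRF8KO replicate 2 alone, with folds there of 8.80 and 14.4. If loss is defined as no consensus region in IRF8KO, these 2 count and the number of lost regions is 5 of 10, where 48.0% of all WT regions are lost. Replicate 2 of both genotypes was called at q 0.05 with another control, and replicate 1 at q 0.01.

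PU.1 was gained at 1 of the 6 IRF8KO consensus regions, where 16.5% of all were gained. It was the farther upstream element of Tlr13 (chrX:106135953-106136567), with folds of 5.12 and 6.89 in IRF8KO and no peak in WT. This element had an IRF8 peak in all 3 P14 and all 3 adult libraries, with folds of 7.26, 9.04 and 7.04 in adults. The same element also had H3K27ac in both IRF8KO libraries and in WT replicate 1. At a −log10 p of at least 10, and with windows of 5 kb, no gained PU.1 region was left at these genes, where 19.6% and 16.5% of all were gained.

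**Figure D3:**
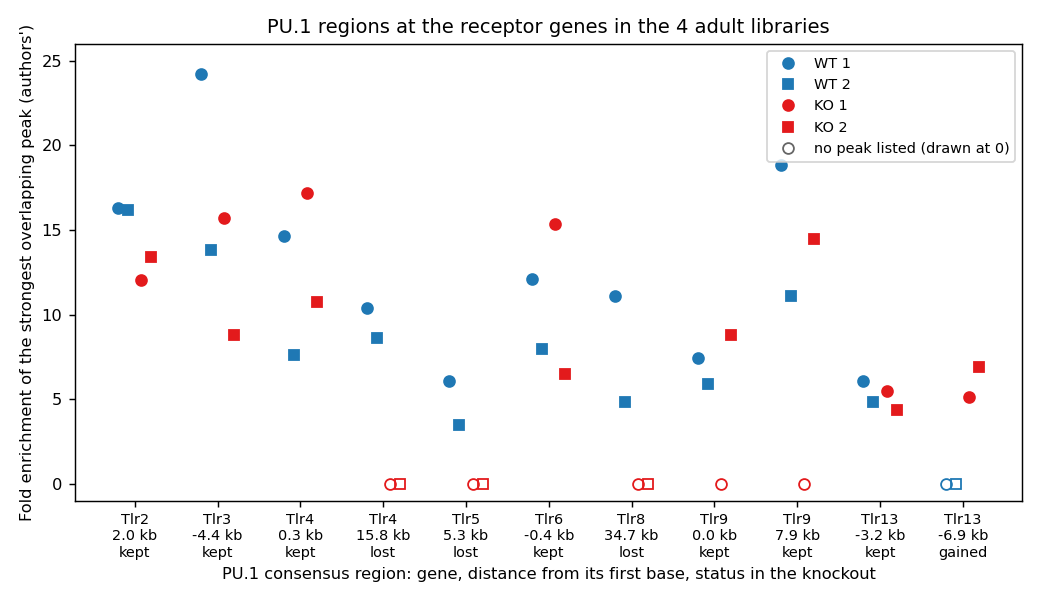
Fold enrichment given by the authors for the strongest PU.1 peak over each PU.1 consensus region of the receptor genes, in 2 WT (blue) and 2 IRF8KO (red) libraries; open symbols at 0 mark libraries with no peak. Regions of Tlr4, Tlr5 and Tlr8 have open symbols in both IRF8KO libraries, both Tlr9 regions in 1, and the rightmost Tlr13 region in both WT libraries.

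H3K27ac was lost at 19 of 48 WT consensus regions, beside 34.0% of all WT H3K27ac regions. Tlr4 had the most, 8 of 17, followed by Tlr3 with 3 of 5, and Tlr2 and Tlr8 with 2 each, of 4 and 3. Tlr1, Tlr6, Tlr7 and Tlr13 had 1 each, and Tlr5 and Tlr9 had 0 of 3 and 0 of 5. The second IRF8KO library had 8.57 M fragments and 31524 regions against 88400 in the first, and the receptor genes had 59 and 27 regions in the 2 libraries against 86 and 76 in WT. Without the second IRF8KO library 21 of 48 regions were lost, beside 37.3% of all, and without the first 34 of 48, beside 72.9%. The part of depth in the short second list was not tested.

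The lost Tlr4 regions were 3 upstream of the gene, 4 in introns and 1 beyond its end, none of them at an adult IRF8 site. The Tlr4 promoter had H3K27ac folds of 14.8 and 15.0 in WT and 7.51 and 11.5 in IRF8KO. The intronic site that lost PU.1 kept H3K27ac, with folds of 6.79 and 7.85 in WT and 6.80 and 5.75 in IRF8KO. H3K27ac was thus listed there in all 4 libraries and PU.1 in WT alone. At Tlr3 the 3 lost regions were 2 in introns and 1 inside the neighbouring gene Fam149a, while the upstream element kept folds of 14.2 and 14.1 in WT and 10.7 and 17.2 in IRF8KO. At Tlr8 the lost pair were a part of the site beyond the gene's end, centred 32.0 kb from the first base, and an upstream region. The Tlr8 region that lost PU.1 lies under another H3K27ac region (chrX:167226562-167230347), which was kept. Its folds were 6.17 and 7.52 in WT and 6.44 and 8.62 in IRF8KO.

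Every promoter of the family under a WT H3K27ac consensus region kept a peak in at least 1 IRF8KO library: those of Tlr1, Tlr2, Tlr4 and Tlr6 in both, those of Tlr3, Tlr5, Tlr7 and Tlr13 in the first, and that of Tlr9 in the second. For Tlr3 this refers to the IRF8 site over its first base. The wide WT H3K27ac region there (chr8:45408224-45420193) had peaks in both. So had a region at another Tlr3 start (chr8:45397728-45398704), with folds of 3.58 and 3.70. The Tlr8 promoter had no WT consensus region. It was 1 of the 2 H3K27ac regions gained, with folds of 4.28 and 4.31 in IRF8KO, and the other lies 7.5 kb into Tlr7, with 3.94 and 5.27. These were 2 of 17 IRF8KO regions, where 10.9% of all were gained. Without IRF8KO replicate 1 the gained count was 7 of 27, where 55.5% of all were gained, and without replicate 2 it was 15 of 59, where 55.9% were, since a group of 1 library has no second library to meet the consensus.

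The 48 WT H3K27ac regions were also split by an overlap with an adult IRF8 consensus region, a split chosen after the counts were seen. Of 17 with IRF8, 2 were lost, at Tlr8 and at the nearer upstream site of Tlr13. Of 31 without IRF8, 17 were lost. Over the whole series the shares were 21.0% of 12943 and 41.2% of 23754. Regions with IRF8 also had higher WT folds: the median of the mean WT fold was 7.32 for kept regions with IRF8, 4.93 for kept regions without it and 4.27 for lost regions without it. An overlap of 1 bp sufficed for a region to count as kept or as with IRF8. The longest kept region with IRF8 had 11970 bp, and the longest lost region 2856 bp. The parts of peak strength and region width in the split were not tested.

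**Figure D4:**
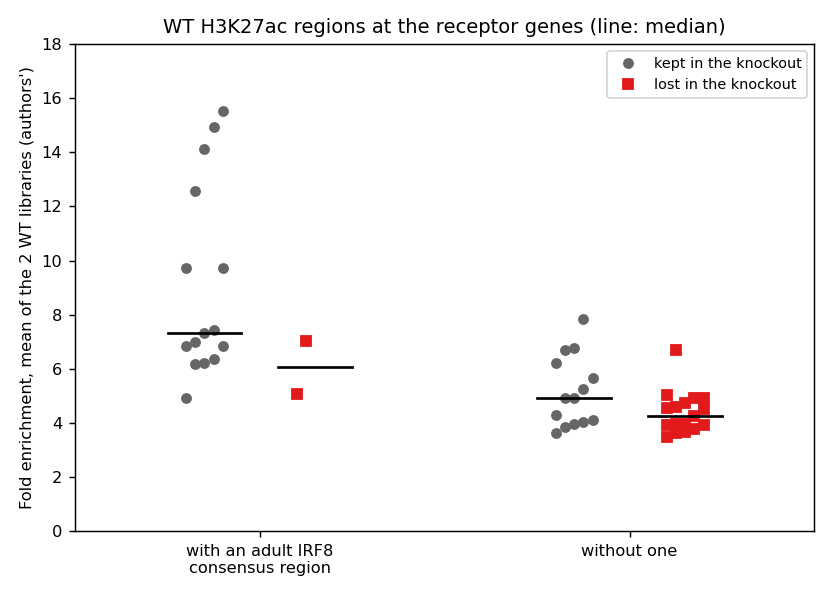
Mean fold enrichment of the 2 WT libraries for each WT H3K27ac region of the receptor genes, split by overlap with an adult IRF8 consensus region and by loss in the knockout; lines are medians. Lost regions (red squares) number 2 of 17 with IRF8 and 17 of 31 without it, and their folds lie between 3.49 and 7.04.

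H3K4me1 was lost at 2 of 34 WT consensus regions, below the 13.0% of all WT regions, and gained at 4 of 38 IRF8KO regions, below 23.8%. Both lost regions were at Tlr4, centred 12.8 kb upstream of the gene and beyond its end, with WT folds of 2.26 and 2.06 and of 2.06 and 2.27. The gained regions were 2 in introns of Tlr5, 1 in an intron of Tlr4 and 1 beyond the end of Tlr8, with folds of 1.71 to 2.57. None of these 6 regions overlapped an adult IRF8 region. All 12 WT H3K4me1 regions with an adult IRF8 region were kept, where 2.86% of all such regions were lost. At the Tlr4 and Tlr8 sites where PU.1 was lost, an IRF8KO H3K4me1 consensus region covered the site. The lost Tlr5 site fell between 2 IRF8KO H3K4me1 consensus regions, although the wide WT region around it counted as kept. IRF8KO replicate 2 had 23.9 M fragments and 189351 H3K4me1 regions, against 113370 in replicate 1 and 104818 and 129859 in WT. WT regions at these genes ran up to 26760 bp, and 1 bp of overlap sufficed to count as kept. The parts of depth and width in the H3K4me1 counts were not tested.

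**Figure D5:**
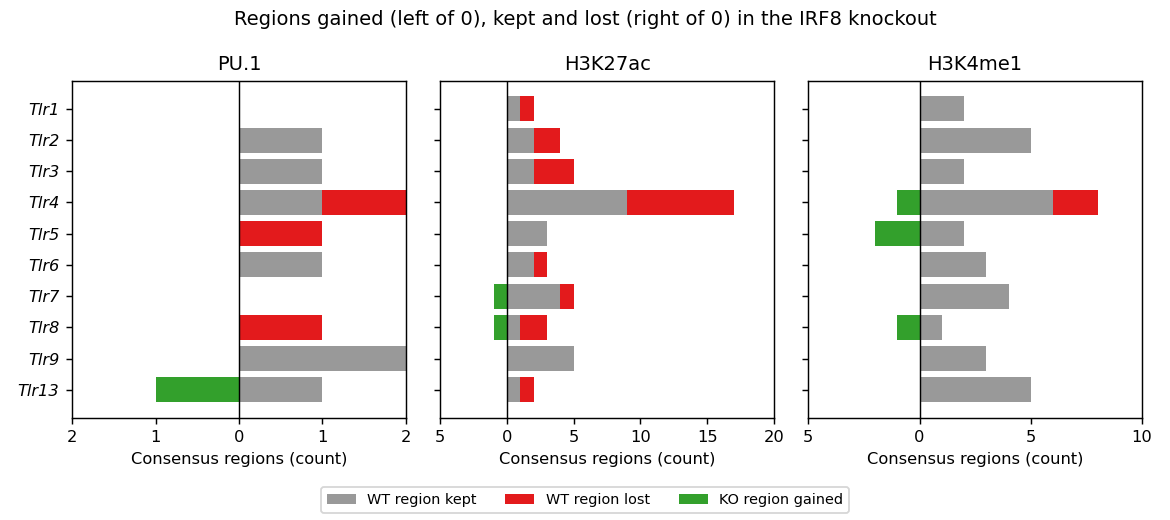
Consensus regions of PU.1, H3K27ac and H3K4me1 in each receptor gene's window: WT regions kept (grey) and lost (red) to the right of 0, and IRF8KO regions gained (green) to the left. Tlr4 has the longest H3K27ac bar, with 8 of 17 lost, and the region shared by Tlr1 and Tlr6 is drawn in both rows.

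Other genes of the pathway were taken from a list of 40, from co-receptors to inhibitors, all found in the annotation. IRF8 consensus regions were present at 10 of these 40 genes at P9, beside 6.99% of all windows, and at 28 by P14, beside 32.0%. Adults had them at 34, beside 50.7%, and macrophages at 31, beside 40.0%. The stage test called 29 as rising, beside 46.0% of all windows tested. The 10 with IRF8 at P9 were the co-receptor and trafficking genes Cd180, Ly86, Unc93b1, Cnpy3 and Cd36, the kinases Irak2, Map3k7 and Ikbkb, and the transcription factors Rela and Irf5. Unc93b1 carries the nucleic-acid-sensing receptors to endosomes, and Cd180 and Ly86 encode a complex related to that of Tlr4. Of the genes for partners of Tlr4 itself, Cd14 had 0 IRF8 consensus regions at P9 and 5 in adults, Ly96 had 0 and 2, and Lbp had 0 in all 4 IRF8 groups.

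PU.1 was lost at 1 region each of 5 pathway genes: Tlr11, a further receptor of the family, the kinases Irak2, Map3k7 and Tbk1, and Tnfaip3, an inhibitor of NF-kB signalling. These were 5 of 31 WT regions summed over the genes, beside 25.1% of all regions. PU.1 was gained at Cd36 and Traf3, 2 of 28 IRF8KO regions, beside 16.5%. Traf3, Cd14 and Lbp were named after their values were seen. H3K27ac was lost at 35 of 135 regions, beside 34.0% of all, and gained at 3 of 46, beside 10.9%. H3K4me1 was lost at 13 of 157, beside 13.0%, and gained at 23 of 203, beside 23.8%. The shares lost and gained at the pathway genes were thus below those of all regions. At least 50% of the H3K27ac regions, and at least 2, were lost at Cd180 and Ly86 (4 of 8 each), Unc93b1, Ticam1 and Rela (2 of 4 each), Tlr12 (2 of 3) and Chuk (2 of 2). Ticam1 encodes the adaptor TRIF, and Chuk and Rela belong to the NF-kB pathway.

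By region counts over the 25 libraries, the pathway genes nearest to the members' median profile were Chuk, at a Euclidean distance of 5.17, and Unc93b1, at 5.45. Ly96, Myd88 and Irak4 followed at 5.63, a tie for the third place. Among the receptors themselves the distance ran from 4.09 for Tlr8 to 40.7 for Tlr4.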

How the data were processed

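CUT&RUN peak lists of 25 libraries were used. Per the labels, reads were processed to mm10 with Bowtie2 and MACS2 among the tools named. Per the file headers, peaks were called per library against IgG with MACS 2.2.7.1 (IRF8, PU.1) or 2.2.6 (histone marks), at q 0.01, at q 0.05 for PU.1 replicate 2, and as broad regions at p 0.01 for H3K4me1. The deposited lists give −log10 p and fold enrichment per peak, which the authors' caller computed, and neither was rescaled here. A fold enrichment is a ratio over the IgG control and was not tested between lists. WT and IRF8KO folds are printed side by side as descriptions, and H3K27ac folds were averaged over the 2 WT lists, which share a control and a cutoff.

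Entries with the same chromosome, start and end were counted once. Windows were GENCODE vM21 gene bodies with 20 kb on each side, overlap was at least 1 bp, and consensus needed 2 libraries. Peak ends lay within GRCm38 chromosome lengths. The stage test enumerated all assignments of the 10 libraries with Python 3 and numpy, and was tested on simulated data. Named genes were all members, the genes of a pathway list with PU.1 loss, H3K27ac loss at 2 or more regions that make up at least 50% of the gene's regions or a P9 consensus region, and the 3 nearest to the members' median. Members, lists and tests were chosen with earlier results of these data known. Alternatives were a window of 5 kb, −log10 p of at least 10, equal list lengths, stricter consensus, other rules of absence and overlap, presence in place of counts, another motif centre, and each library left out. The 4 IgG controls were not analysed here as samples. Signal where no peak was listed was not measured. The sequence of 1 PU.1 region is not reported here.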

Additional observations from a re-analysis of the deposited data

Results flagged for a closer look

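Among the 4 P9 libraries, 3 receptor genes had 1 IRF8 library far from the others. Tlr3 had 0 regions in replicate 4 and 1 in each of the others. Tlr6 had 1 region in replicate 1 and 0 in the others, and Tlr13 had 1 in replicate 3 and 0 in the others. Chance flags about 1 in 20 groups of continuous values, but among counts of 0 and 1 any split of 1 library against 3 meets the criterion, so that rate does not hold here. Of 10 genes examined at P9, 3 met it.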

How the results depend on the processing

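Raising the −log10 p minimum to 10 left 3 receptor genes called as rising (16.8% of all windows) and 1 with a P9 consensus region (3.47%). It left 1 higher in every adult than in every macrophage library (9.67%). For PU.1, 1 of 7 regions was lost (28.1% of all) and 0 of 4 gained (19.6% of all). For H3K27ac, 6 of 18 regions were lost (50.7% of all) and 0 of 6 gained (8.03% of all). No H3K4me1 region was left at that minimum, so it gave no value there. Lists of equal length gave 0 genes called, consensus regions at 4 genes at P14, 3 in adults and 3 in macrophages, and 1 gene higher in adults (7.55% of all windows). They gave 6 of 21 H3K27ac regions lost (35.4% of all) and 0 of 11 gained (13.5% of all), and 1 of 33 H3K4me1 regions gained (17.3% of all). Presence in place of counts gave 2 genes called, beside 12.2% of all windows. Consensus in all libraries gave 1 gene at P9 (1.99% of all windows) and 3 in macrophages (14.9%). Windows of 5 kb hold fewer regions and gave 8 of 29 H3K27ac regions and 1 of 21 H3K4me1 regions lost, and 0 of 5 PU.1 regions gained, while the shares of all regions stay as with 20 kb. Counting a region as absent when the other genotype had no consensus gave 5 PU.1 and 35 H3K27ac regions lost, where 48.0% and 78.4% of all were, and 8 of 38 H3K4me1 regions gained (44.4% of all). Asking for 50% coverage gave 5 PU.1, 39 H3K27ac and 4 H3K4me1 regions lost, and 9 H3K4me1 regions gained, and the share over all regions was not computed for this rule. At the summit the composite and interferon-response-like motifs fell to 0 regions each. The causes were not tested.

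With each library left out in turn, genes called as rising ranged from 2 to 8, while 9.71% to 49.5% of all windows were called. Genes with consensus ranged from 2 to 2 at P9 (4.75% to 6.02% of all windows), 7 to 10 at P14 (18.96% to 26.5%), 9 to 10 for adults (34.1% to 46.8%) and 3 to 7 for macrophages (16.2% to 37.1%). Genes higher in adults ranged from 2 to 3 (9.74% to 17.1%) and lower from 0 to 1 (1.56% to 6.67%). Regions and shares change together here. PU.1 loss ran from 3 to 12, of 10 to 21 regions, where 35.6% to 58.6% of all were lost, and PU.1 gain from 1 to 4, of 6 to 13 (24.3% to 58.2% of all). H3K27ac loss ran from 21 to 47, of 48 to 86 regions, where 37.3% to 72.9% of all were lost, and gain from 2 to 15, of 17 to 59 (14.1% to 55.9%). H3K4me1 loss ran from 3 to 10, of 34 to 54 (19.04% to 44.1%), and gain from 4 to 12, of 38 to 61 (32.6% to 56.0%).

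No paired analysis was possible as a test, because the genotype results come from no test. The labels tie no replicate number to a shared animal, though the PU.1 lists numbered 2 share a cutoff and a control. As a description, same-numbered lists set side by side gave PU.1 loss at 15 of 21 regions for replicate 1, beside 66.4% of all, and at 5 of 13 for replicate 2, beside 57.5%. H3K27ac loss was 50 of 86, beside 57.4%, and 60 of 76, beside 85.4%, and H3K4me1 loss 11 of 47, beside 49.1%, and 12 of 54, beside 51.2%. Gains were 3 of 9 and 5 of 13 for PU.1, beside 53.6% and 67.7%, 20 of 59 and 9 of 27 for H3K27ac, beside 61.1% and 62.4%, and 14 of 54 and 16 of 61 for H3K4me1, beside 51.8% and 66.2%. A peak not listed is not a signal of 0.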
